A study of Mus musculus with 7 samples.

Results

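The cells described here are B lymphocytes of the mouse spleen that had been added to sorted thymocytes before droplet capture. A barcode, which stands for a captured cell, was taken as a B cell when it held at least 200 detected genes, at most 15% mitochondrial UMIs, at least 5 UMIs of Cd79a, Cd79b and Ms4a1 together and at most 1 UMI of Cd3d, Cd3e and Cd3g together. A UMI (unique molecular identifier) marks a transcript molecule counted once. This gave 926 B barcodes among 79076 that passed the limits on genes and mitochondrial UMIs, and among 90016 in all. They were set against 67355 thymocyte barcodes, which held at most 1 UMI of the B markers and at least 1000 genes. The other 10795 barcodes that passed fell into neither class.

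The study used 7 libraries made with 10x 3′ v3 chemistry, each with 500 spiked B cells, or 3500 in all. Of these, 5 held WT C57BL/6 thymocytes from pooled thymi of mice of both sexes aged 6 to 8 weeks, depleted of CD4+ and CD8+ cells on beads: DN3a, then DN3b and DN4 without surface γδ TCR (γδ−), then DN3b and DN4 with it (γδ+). Values of the WT libraries are given in this order below, followed by those of the Lat-KO libraries, γδ− before γδint. The other 2 held DN3 γδ− and DN3 γδint thymocytes of Lat-/-TCRd-H2BEGFP mice (Lat-KO below), which lack the adaptor LAT and carry a green fluorescent Trdc reporter allele. DN is the CD4− CD8− stage of T cell development, and γδ gives the surface level of the γδ T cell receptor. The B cells came from spleens digested with enzymes and freed of red cells, and were sorted on surface proteins that include MHC class II, so that the class II genes had been selected at the protein level. The mouse that gave the B cells of a library is not in the labels. Both Lat-KO sorts were of the DN3 stage, while the WT sorts ran from DN3a to DN4. Thymocyte genotype, thymocyte stage, library and B cell preparation therefore cannot be told apart. P-values below measure only the spread between libraries.

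B cells carry a membrane antibody of heavy chains with either κ or λ light chains, which signals through the paired CD79A and CD79B chains. In the spleen most mature B cells are follicular cells that recirculate, with surface IgD and CD23. Marginal zone B cells stay beside the marginal sinus, with much IgM and the complement receptor CR2, and transitional cells are recent arrivals from the bone marrow. Activated cells and cells that have met interferon form smaller groups.

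In the WT libraries 98, 258, 119, 60 and 138 B barcodes were found, which made up 1.24%, 1.27%, 0.874%, 0.445% and 1.48% of the barcodes that passed. In the Lat-KO libraries there were 154 and 99, or 1.91% and 1.53%. WT DN3b γδ+ thus gave the fewest and WT DN3b γδ− the most under this Cd3 limit. A further 90 barcodes of WT DN3b γδ+ met the B marker threshold with 2 to 5 Cd3 UMIs, against 30 to 56 in each other library. All 7 numbers lay below the 500 cells added. The median B barcode held 3001 UMIs and 1190.5 genes, with 671 to 16683 UMIs, while the medians of thymocyte barcodes ranged from 5844.5 to 19125 UMIs by library. Counts were summed over the B barcodes of a library, 3035517 UMIs in all, and divided by the library's B total and multiplied by 1000000 to give CPM values. These 3′ counts are not divided by transcript length.

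The marker sum that chose the cells had a median of 18 UMIs per B barcode. Just inside its threshold, 18 barcodes held 5 such UMIs (median 1313 UMIs in all), and just outside it 20 held 4 (median 1433). At the Cd3 limit, 434 members held 1 Cd3 UMI (median 3166), and 202 barcodes with 2 such UMIs fell outside (median 3153.5). In all, 738 barcodes met the B marker threshold with 2 or more Cd3 UMIs. Of these, 340 held 2 to 5 (median 3277.5 UMIs), 17 held 6 to 10, and 381 held more than 10 (median 16517). A further 97 were left out for mitochondrial UMIs. Any 2 libraries shared 18 to 93 barcode sequences, none of which was a B barcode in both.

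Thymocyte transcripts were found in the B sums. The 15 T cell genes outside Cd3 summed to 498 to 1754 CPM in B barcodes, or 6.86% to 28.7% of the sum in the thymocytes of the same library, lowest in Lat-KO DN3 γδ− and highest in WT DN4 γδ−. That sum includes Cd2, an adhesion receptor that B cells also have, which was at 129 to 241 CPM in B barcodes and higher there than in thymocytes in all 7 libraries. Ribosomal protein genes took 29.8% to 34.6% of B UMIs in 6 libraries but 18.9% in Lat-KO DN3 γδint, whose thymocytes were also low, at 17.2%. The part of either in the results below was not tested, apart from a comparison of the libraries with ribosomal protein genes left out. Genes of other spleen cells were scarce in the pooled B barcodes, with list sums of 54.7 CPM for myeloid genes, 114 CPM for dendritic cell genes, 126 CPM for NK cell genes and 35.9 CPM for erythroid genes.

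The genes of the membrane receptor complex set the B barcodes apart by construction, and their levels are given as a description. Cd79a, a signalling chain of the B cell receptor (chromosome 7, mm10), was at 2353, 3822, 1761, 2256 and 2157 CPM in the WT libraries and at 3801 and 4028 CPM in the Lat-KO ones, with WT DN3b γδ− and both Lat-KO libraries above the rest. Thymocytes of the same libraries held 0.227 to 1.53 CPM. Cd79b, its partner chain, ranged from 1437 to 3261 CPM in B barcodes and from 8.63 to 49.4 CPM in thymocytes. A B marker UMI was present in 26.8% of thymocyte barcodes, each with a single such UMI.

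Ms4a1, which encodes CD20, ranged from 858 to 1483 CPM in B barcodes against 0.127 to 0.438 in thymocytes. UMIs of it were seen in 89.8% of B barcodes and in 0.29% of thymocyte barcodes. The B and thymocyte values did not overlap for any of the 3 genes. Both classes were chosen on these genes, so that these contrasts were set by the rule and are not a result.

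**Figure D1:**
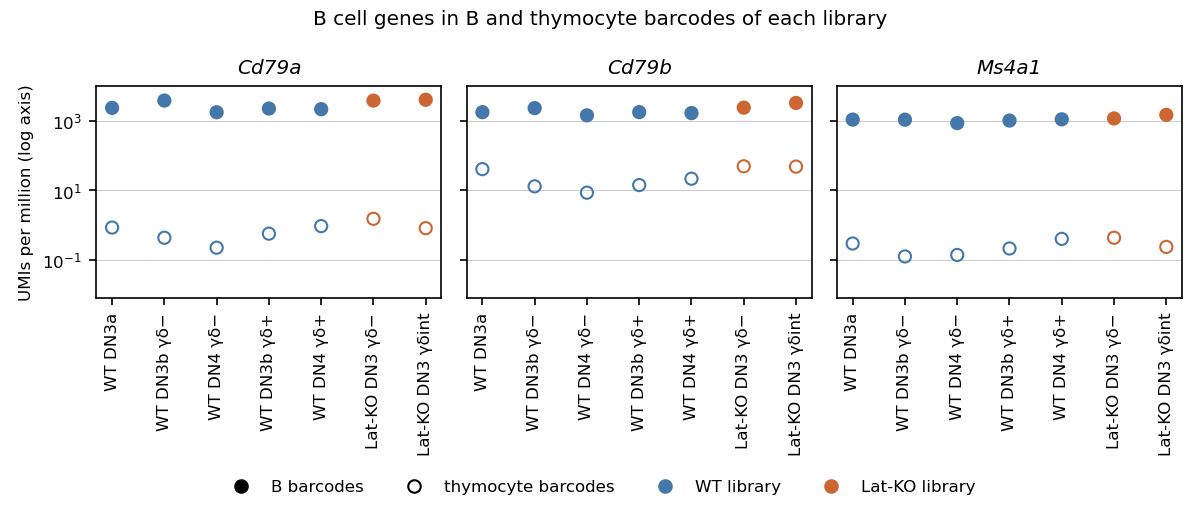
CPM of Cd79a, Cd79b and Ms4a1 (log axis) in the summed B barcodes (filled) and thymocyte barcodes (open) of each library, blue for WT and orange for Lat-KO. In every library the B sum lies above the thymocyte sum of the same gene, with the narrowest gap for Cd79b, which thymocytes hold at 8.63 to 49.4 CPM. The rule used these genes to choose both classes and held thymocyte barcodes to at most 1 UMI of them.

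Over the whole table, 6297 genes reached a mean of 20 CPM in B or thymocyte sums. Of these, 221 (3.51%) were at least 4-fold higher in B barcodes in each of the 7 libraries and 20 (0.318%) at least 4-fold lower, with a median log2 ratio of −0.38 over all 6297. With no filter on low values the first count was 887. TMM scaling, which allows for composition, would move the log2 ratios of a library by −0.15 to 0.28. This contrast chose the members, so these counts are read as a description of the B cell programme. Among the 20 were Cd3g (log2 −4.57), Cd3e and Cd3d, which the rule used, and T cell genes that it did not use, such as Trgv2, Cd247 and Tcrg-C2.

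Among genes at 100 CPM or more, the 15 with the highest log2 ratios were Gm31243, Ms4a1, Cd79a, Gm30211, Cd180, Iglc3, Fcmr, Vpreb3, Cybb, Ebf1, Iglc2, Igkc, Iglc1, Pax5 and March1. Most are long-known B cell genes: Fcmr encodes the receptor for the tail of IgM, Vpreb3 a partner of nascent immunoglobulin chains, Cd180 a toll-like receptor relative and Cybb a subunit of the phagocyte oxidase. Gm31243, a gene model without a known role here, was at 225 to 489 CPM in the B sums and at 0.0617 CPM on average in thymocytes. Gm30211 was at 51.6 to 219 CPM against 0.0113 CPM. The annotated span of Gm30211 on chromosome 6 contains Igkc on the same strand, and Gm31243 is annotated as antisense. Whether their counts are separate from those of overlapping genes was not tested.

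Of the 17 B identity genes in the files, 16 were at least 4-fold higher in every library, with a list median of 10.50 on the log2 scale. Cd79a, Cd79b and Ms4a1, which the rule used, are among the 16. Without them it was 13 of 14, with a median of 10.13. The exception was Ralgps2, at 430 CPM in B barcodes and 93.9 CPM in thymocytes (log2 2.31, from 1.42 to 3.37 by library). Cd37, a tetraspanin, was higher by a log2 ratio of 4.17, and Fcmr by 11.24.

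Among the transcription factors, 12 of 21 compared passed the 4-fold limit in every library. Pax5, which maintains B cell identity, was at 177, 219, 188, 192 and 231 CPM in the WT libraries and 279 and 325 CPM in the Lat-KO ones, against at most 0.259 CPM in thymocytes. Ebf1, which acts with Pax5 in B cell specification, ranged from 623 CPM in Lat-KO DN3 γδint to 1495 CPM in WT DN3a (log2 11.07). Pax5 was thus highest in the library in which Ebf1 was lowest.

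Spi1, Pou2f2, Mef2c, Pou2af1, Spib, Bcl11a, Irf4, Irf8, Zfp318 and Bach2 were the other 10 above the limit. Factors that thymocytes use as well did not separate the classes: Ikzf1 had a mean log2 ratio of −0.02, Tcf3 of −0.35 and Id3 of 0.98. Klf2, which keeps lymphocytes in recirculation, was at 591 to 1361 CPM in B barcodes. Its log2 ratio ran from 1.68 to 7.66 by library.

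Of the genes of receptor signalling, 17 of 24 were above the limit, or 15 of 22 without Cd79a and Cd79b, which the rule used. The adaptor Blnk (log2 9.11), the kinases Btk (7.14), Lyn (5.58) and Syk (4.33) and the phospholipase Plcg2 (4.22) were all higher in every library, as were the inhibitory receptors Siglecg (10.59), Cd22 (10.57), Cd72 (7.01) and Fcgr2b (7.75). Blk, a kinase of B cells and of some γδ T cells, was at 130 CPM in B barcodes and 29.5 CPM in thymocytes, and its log2 ratio ranged from −0.45 to 4.34. Cd5 was at 4.28 CPM in B barcodes and at 34.4 CPM in thymocytes.

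The promoters of 3 genes of the programme are printed to show known B cell motifs at genes that were high in these cells. Over the 250 bases before the start of each gene, the octamer ATGCAAAT, read on both strands (ATTTGCAT on the other), was present at 490 of 27025 genes (1.81%), at 69 of 5056 compared genes with a RefSeq promoter (1.37%) and at 9 of the 169 B-high genes with one (5.33%). The 9 were Blnk, Ccr6, Chchd10, Cnr2, Gadd45g, Il4ra, Ms4a4c, Tent5a and Vpreb3. The EBF palindrome, TCCC and GGGA with any 2 bases between them, was present at 0.914% of all genes, 1.05% of compared genes and 11 of the 169 (6.51%), among them Cd22. A match is a description and not a site of binding. The sequences are RefSeq's, build GRCm38.p6, given from 5′ to 3′ on the strand of the gene and ending at the base before its start. Capitals mark the octamer in Vpreb3 (chr10:75948050-75948299, plus strand, first base 45 before the start) and Blnk (chr19:40994222-40994471, minus strand, 130 before), and the palindrome in Cd22 (chr7:30879029-30879278, minus strand, 49 before).
Vpreb3: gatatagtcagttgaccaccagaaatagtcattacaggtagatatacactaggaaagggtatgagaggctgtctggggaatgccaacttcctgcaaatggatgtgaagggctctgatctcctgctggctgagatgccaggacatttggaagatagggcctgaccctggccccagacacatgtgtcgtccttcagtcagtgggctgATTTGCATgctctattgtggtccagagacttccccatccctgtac
Blnk: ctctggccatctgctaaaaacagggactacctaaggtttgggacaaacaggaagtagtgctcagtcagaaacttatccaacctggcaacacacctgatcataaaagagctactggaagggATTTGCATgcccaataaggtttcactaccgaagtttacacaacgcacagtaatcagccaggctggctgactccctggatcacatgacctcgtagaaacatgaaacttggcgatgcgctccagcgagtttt
Cd22: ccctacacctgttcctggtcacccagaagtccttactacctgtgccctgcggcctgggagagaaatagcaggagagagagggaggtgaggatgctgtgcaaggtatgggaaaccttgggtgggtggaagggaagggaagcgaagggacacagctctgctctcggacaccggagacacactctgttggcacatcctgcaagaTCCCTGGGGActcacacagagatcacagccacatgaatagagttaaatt

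In the list of antigen presentation by MHC class II, 15 of 15 genes were above the limit (list median 8.41), in cells sorted for the protein. Cd74, the invariant chain that escorts class II molecules, was at 11293, 16294, 9102, 12169 and 11905 CPM in the WT libraries, and at 18431 and 21713 CPM in the Lat-KO ones. The Lat-KO values lay above the WT range. No gene of this list passed the test between libraries given below, which only 5 of 5332 genes did. H2-Aa ranged from 2598 to 5389 CPM, H2-Eb1 from 2113 to 5204 CPM and H2-Ab1 from 2415 to 5396 CPM. Ciita, the master regulator of the class II genes, was at 96.5 to 232 CPM. H2-Oa and H2-Ob, which temper peptide loading, were at 248 and 348 CPM in the pooled B barcodes. March1, a ligase that removes class II molecules from the surface, had the highest log2 ratio of the list (10.76).

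The class II promoters are printed because they share the Y box, an element of class II promoters. CTGATTGG, or CCAATCAG on the other strand, was present at 4.43% of all genes, 6.74% of compared genes, 9 of the 169 B-high genes (5.33%) and 4 of the 12 class II list genes with a promoter (33.3%): H2-Aa, H2-Eb1, H2-Eb2 and H2-Oa. Unlike the octamer and the palindrome, it was present at a smaller share of B-high genes than of compared genes. Capitals mark it in H2-Aa (chr17:34287824-34288073, minus strand, first base 51 before the start) and H2-Eb1 (chr17:34305617-34305866, plus strand, 62 before), RefSeq, GRCm38.p6.
H2-Aa: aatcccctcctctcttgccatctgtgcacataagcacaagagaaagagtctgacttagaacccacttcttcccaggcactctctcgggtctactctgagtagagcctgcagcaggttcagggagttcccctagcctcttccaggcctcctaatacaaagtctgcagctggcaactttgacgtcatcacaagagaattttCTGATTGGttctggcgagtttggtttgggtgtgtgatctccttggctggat
H2-Eb1: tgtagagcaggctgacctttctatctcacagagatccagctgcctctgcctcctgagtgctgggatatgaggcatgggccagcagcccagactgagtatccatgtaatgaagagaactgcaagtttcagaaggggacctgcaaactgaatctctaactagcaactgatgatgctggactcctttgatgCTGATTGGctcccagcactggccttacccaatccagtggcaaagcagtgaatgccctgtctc

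Receptors for survival and helper signals were present. Tnfrsf13c, the BAFF receptor, was at 298 CPM in the pooled B barcodes (log2 9.96) and Cd40 at 69.5 CPM (10.66), the 2 of 6 genes of that list above the limit. Tnfrsf17, a plasma cell receptor, had no UMI in the B barcodes. Cd27, a receptor of T cells and memory cells, was at 38.9 CPM in B barcodes and 220 CPM in thymocytes (log2 −2.50, lower in every library). Of the toll-like receptor list, the 4 genes compared were all above the limit: Cd180, its partner Ly86, Tlr1 and the trafficking protein Unc93b1. Tlr7 was at 13.2 CPM and Tlr9 at 1.65 CPM, under the level needed for comparison.

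Genes of later B cell stages differed in level. No gene of the germinal centre list reached the level needed for comparison, and the list summed to 40.5 CPM. The plasma cell list summed to 569 CPM, and 2 of the 3 genes compared were above the limit, Mzb1 at 442 CPM and Irf4 at 32.3 CPM, which are also in the marginal zone and activation lists. The other plasma cell genes Prdm1 and Sdc1 were at 1.65 and 5.60 CPM and Jchain at 6.92 CPM. Among the isotypes, Ighm was at 2773 CPM and Ighd at 684 CPM, whereas Ighg1, Ighg2c and Ighe had no UMI and Ighg3 and Ighg2b had 2.97 CPM each. Igha was at 35.3 CPM. Its 107 UMIs lay in 24 barcodes, and 72 of them lay in a single barcode of WT DN3a.

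**Figure D2:**
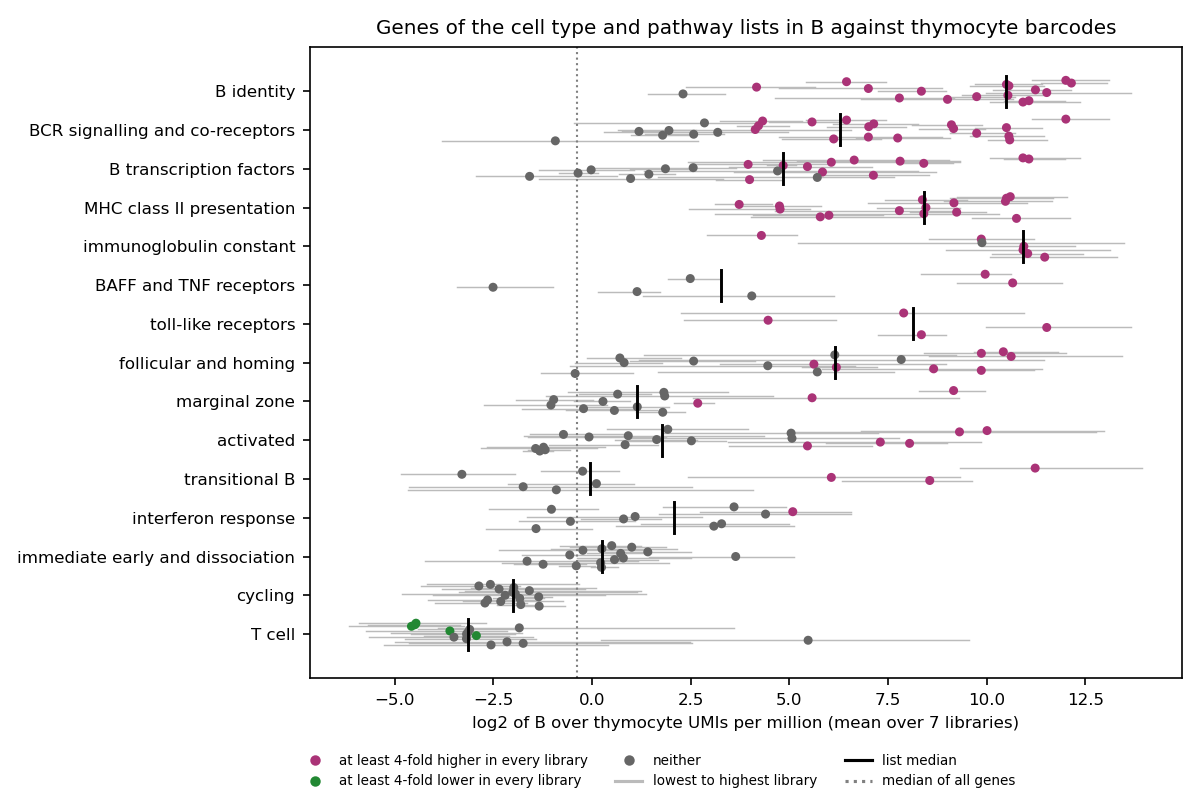
Mean log2 ratio of B over thymocyte CPM over the 7 libraries (horizontal axis), for each gene compared, by list; grey lines join the lowest and highest library, black bars give list medians and the dotted line the median of all genes (−0.38). B identity and immunoglobulin constant genes lie farthest to the right, and the cycling (−2.004) and T cell (−3.14) lists lie to the left.

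Of 15 follicular genes compared, 7 were above the limit, namely Ccr6, Fcer2a, Cxcr5, Ighd, Cd55, Icosl and Gpr183. Fcer2a, which encodes CD23, was at 223, 395, 178, 244 and 222 CPM in the WT libraries and 329 and 325 CPM in the Lat-KO ones, with UMIs in 48.4% of B and 0.23% of thymocyte barcodes. The homing receptor Cxcr4 (log2 0.82) did not separate the classes, at 65.6 CPM in B barcodes and 35.4 CPM in thymocytes.

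Of 13 marginal zone genes compared, 3 were above the limit: Cr2, Mzb1 and Notch2. Of 18 activation genes there were 5, namely Cd83, Cd86, Il4i1, Bcl2a1b and Irf4, while Myc (log2 −0.72) and Ccnd2 (−1.22) were at lower levels in B barcodes on average. None of 15 immediate early genes was above it, and 1 of 10 interferon genes was, Ifi27l2a (log2 5.09). Of the transitional list 3 of 8 were (Vpreb3, Ms4a4c and Spib), of the B1 cell list 0 of 8, and of the age-associated B cell list 0 of 3. None of the 15 cycling genes was above the limit (list median −2.004). Over all 6297 genes compared, 3.51% were above it, so that counts of 0 or 1 in lists this short are near that share.

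The B barcodes pooled over libraries were grouped into 8 clusters by their variable genes. Clusters 1 to 4, with 194, 192, 191 and 155 barcodes, followed the libraries. Cluster 1 was formed mainly by the Lat-KO libraries (107 and 70 barcodes), cluster 2 by WT DN3a (75) and WT DN4 γδ+ (98), cluster 3 by WT DN3b γδ− (178, or 93.2%), and cluster 4 by WT DN4 γδ− (98) and WT DN3b γδ+ (46). Cluster 4 was led by the histone genes Hist1h2ap and Hist1h2ae, with T cell genes at 1850 CPM, against 738 to 1192 CPM in clusters 1 to 3. Its cycling list summed to 3409 CPM, against 855, 950 and 2338 CPM in clusters 1, 2 and 3. Whether these clusters are types of B cell or libraries cannot be told apart, and they were left unnamed. In all 4 the ratio of Ighm to Ighd UMIs was close, from 2.75 to 3.20.

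The other 4 clusters held 67, 61, 48 and 18 barcodes and none drew over 50% of them from 1 library, although WT DN3b γδ− gave 21 of the 48 (43.8%) and WT DN4 γδ+ 8 of the 18 (44.4%). A cluster was named after the list with the most markers that had UMIs in at least 25% of its barcodes and were at least 2-fold above the other B barcodes, given at least 3 such markers and no library above 50% of it, a rule set after the clusters had been seen. Genes of a cluster against the rest are described without a test, since the genes made the clusters.

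Cluster 6 was marginal-zone-like, with 14 of the 20 markers of that list and 61 barcodes (median 5010 UMIs, against 3001 over all B barcodes). Cr2 was at 871 CPM in it and 169 CPM in the other B barcodes, with UMIs in 96.7% and 31.1% of barcodes. Cd9, a tetraspanin, was at 144 against 18.0 CPM, Cd1d1, which presents lipids, at 132 against 28.7 CPM, and Dtx1, a target of Notch, at 288 against 65.9 CPM. S1pr3, a receptor for sphingosine 1-phosphate, was at 62.6 against 2.58 CPM. The leading genes by fold were Ffar2, Atxn1, Mfhas1, Crebl2, Myof, Dusp16, Cd9, Ahr, Cd36 and Gm6377, of which Myof, Cd9 and Cd36 were list markers.

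Some genes of the follicular list were at low levels in the same cluster. Fcer2a was at 37.6 CPM against 315 CPM elsewhere and Ccr7, a receptor that guides cells to T cell zones, at 18.8 against 149 CPM, both lower in each of the 7 libraries. Klf2 was at 276 against 1063 CPM. Bach2, a repressor of plasma cell fate from the transcription factor list, was at 12.5 against 118 CPM. S1pr1 of the follicular list was higher, at 213 against 123 CPM. Ighd was at 157 against 746 CPM while Ighm was at 3379 against 2701 CPM, so that 21.6 Ighm UMIs were counted for each Ighd UMI. Notch2 itself, the receptor on which these cells depend, was at 84.6 against 55.2 CPM.

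Cluster 7, with 48 barcodes (median 3036 UMIs), was transitional-like on 3 markers. Vpreb3 was at 1354 CPM against 257 CPM in the other B barcodes and was higher in each of the 7 libraries. Spib was at 417 against 143 CPM and Cd24a, a surface protein of immature cells, at 629 against 269 CPM. Cd93, a defining marker of transitional cells, was at 27.4 against 4.85 CPM, with UMIs in 6.25% of the cluster and 1.59% of the other B barcodes. Cecr2 (68.4 against 11.1 CPM) and Akap12 (88.9 against 8.65 CPM) were also higher there but under the 25% of barcodes asked of a marker, and Rag2 had no UMI. Ms4a4c, another gene of the transitional list, was lower, at 95.8 against 229 CPM and with UMIs in 27.1% against 43.4% of barcodes. No cluster bore the transitional name at resolution 0.5 or with no gene class left out of the variable genes. Among the other leading genes were Cfp, Iglc1, Sik1, Rgs2, Lynx1, Rassf4, Rogdi and Pld4.

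Among the genes lower in cluster 7, Apoe had no UMI in it and was at 374 CPM elsewhere, Ly6a was at 61.6 against 442 CPM and Gimap3 at 20.5 against 149 CPM. Klf2 was at 1559 against 950 CPM, S1pr1 at 171 against 130 CPM, S1pr4 at 123 against 69.6 CPM and Ccr7 at 137 against 136 CPM. There were 12.6 Ighm UMIs for each Ighd UMI.

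Cluster 5, with 67 barcodes (median 4941 UMIs), was activated-like on 6 markers. Ccnd2, the cyclin induced on entry into the cell cycle, was at 310 CPM against 58.5 CPM and was higher in each of the 7 libraries. Bcl2a1b, a survival protein, was at 234 against 52.9 CPM and Myc at 78.8 against 25.5 CPM. Ifrd2, Tyrobp, Gpatch4, Snhg15, Marcksl1, Gnl3, Creg1 and Apex1 also led, of which Gnl3, Gpatch4 and Apex1 act in the nucleolus or in DNA repair. The early activation marker Cd69 was not raised, at 152 against 281 CPM, and Cd86 was at 19.0 against 33.7 CPM. Fos was at 78.8 against 180 CPM. The macrophage genes C1qa, C1qb and C1qc reached 3 UMIs together in 13 B barcodes, 11 of which lay in this cluster, and their part in it was not tested. At resolution 1.5 the activated-like cluster held 31 barcodes. A separate unnamed cluster of 42 barcodes was then led by genes that include Fcer1g, S100a6, Tyrobp, Ahnak and Apoe, with 4 activated and 4 B1 markers. Whether cluster 5 mixes these groups was not tested.

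Cluster 8 held 18 barcodes and 13 interferon markers. Ifit3 was at 592 CPM against 12.8 CPM, Irf7, a factor that amplifies the interferon response, at 374 against 21.2 CPM, Isg15 at 265 against 26.6 CPM and Bst2 at 608 against 82.1 CPM. Ifi27l2a, at 2682 against 463 CPM, was detected in 94.4% of the cluster and in 47.7% of the other B barcodes. WT DN4 γδ+ gave 8 of the barcodes and the other libraries 0 to 3 each, with none in WT DN3b γδ+.

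**Figure D3:**
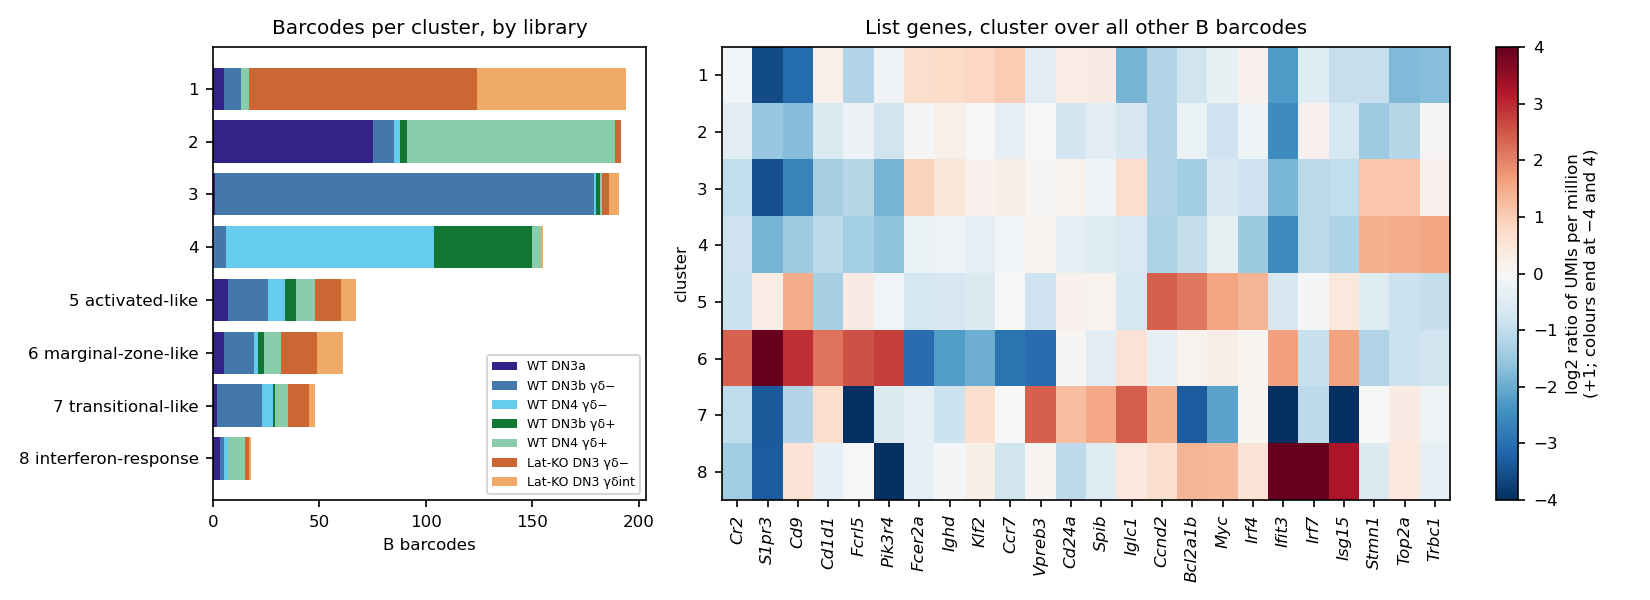
Left, the number of B barcodes in each of 8 clusters, coloured by library. Right, the log2 ratio of CPM in a cluster over all other B barcodes for 24 list genes (colours end at −4 and 4). Clusters 1 to 4 are each made up mainly of 1 or 2 libraries and show pale colours for most marker genes, whereas in clusters 5 to 8 no library gives over 50% of the barcodes, and they show blocks of raised markers.

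Light chain use was read from the constant genes. Of the 926 B barcodes, 890 held at least 10 UMIs of Igkc and of Iglc1 to Iglc4 together. More λ than κ UMIs were found in 82 of them, or 9.21% (95% exact binomial interval 7.39% to 11.3%), and 808 were κ barcodes. In κ barcodes the medians were 30 UMIs of Igkc, 0 of Iglc1, 3 of Iglc2 and 2 of Iglc3. In the 46 barcodes with at least 4 times as many λ as κ UMIs they were 0, 14, 7 and 1. Iglc4 was near 0 in both, at 1.87 CPM in κ barcodes.

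The λ constant genes on chromosome 16 resemble each other to different degrees, and their ends are printed because 3′ counting reads this part of a transcript. Iglc2 and Iglc3 were identical over 96.2% of their coding bases and 90% of the 3′ UTR, whereas Iglc1 and Iglc2 shared 73.3% and 51.8%. The last 60 coding bases are given from 5′ to 3′ (GRCm38.p6, minus strand): Iglc1 chr16:19061752-19061811, Iglc2 chr16:19198536-19198595 and Iglc3 chr16:19065365-19065424. Capitals mark the 13 bases of Iglc1 that differ from Iglc2, and Iglc2 and Iglc3 do not differ in this stretch. Counts of Iglc2 and Iglc3 are therefore uncertain between the pair, and those of Iglc1 less so.
Iglc1: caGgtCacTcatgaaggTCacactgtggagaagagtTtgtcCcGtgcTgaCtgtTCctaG
Iglc2: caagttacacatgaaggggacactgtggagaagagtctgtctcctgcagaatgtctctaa
Iglc3: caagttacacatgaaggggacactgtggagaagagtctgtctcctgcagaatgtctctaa

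Iglc1 was found in fewer κ barcodes than its neighbours were. It had UMIs in 39.0% of κ barcodes, against 86.8% for Iglc2 and 81.1% for Iglc3. Over all B barcodes the shares were 43.2%, 85.5% and 78.1%, and the κ barcodes were called from these same counts. In κ barcodes, Iglc2 and Iglc3 together gave 16.6 to 24.7 UMIs for 100 UMIs of Igkc in 6 libraries but 4.57 in Lat-KO DN3 γδint, which was also the library with the lowest Iglc1 level, at 266 CPM. Thymocytes of the same libraries held 0.735 CPM of Iglc2 on average, against 1163 CPM in κ barcodes. The source of the λ UMIs in κ barcodes was not tested.

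The share of λ barcodes was 7.29%, 12.9%, 12.1%, 14.5% and 7.52% in the WT libraries and 5.23% and 4.12% in the Lat-KO ones. Both Lat-KO values lay below the lowest WT value, with a WT mean of 10.9% ± 3.28 (SD, n = 5). The difference of 6.20 percentage points did not pass the test (two-sided exact permutation test over libraries, p = 0.0952, 0.143 after adjustment over 3 shares), for which the smallest possible p is 0.0476. It reached that value in 3 alternatives, among them thinning to 1500 UMIs (8.91% pooled). Where Iglc1 alone had to exceed Igkc, an alternative chosen after seeing the data, the difference was 3.37 percentage points, the pooled share 5.84% and the exact permutation p 0.143. By cluster the share was 18.0% in the marginal-zone-like cluster (11 of 61), 23.4% in the transitional-like (11 of 47), 6.15% in the activated-like and 5.88% in the interferon cluster (1 of 17). In clusters 1 to 4 it was 1.58%, 6.88%, 13.3% and 10.6%. These are given without a test since the clusters were made from the same counts.

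The marginal-zone-like share was 5.10%, 5.43%, 1.68%, 5.00% and 5.80% in the WT libraries (mean 4.60% ± 1.66, SD, n = 5). In Lat-KO it was 11.04% and 12.1%, above each WT library. The exact permutation test gave its smallest possible value (two-sided, p = 0.0476), which did not pass after adjustment over the 3 shares (0.143). None of the 13 marginal zone genes tested passed the threshold between the B sums of these libraries, but only 5 of 5332 genes did (edgeR, below). The list had a median log2 difference (Lat-KO over WT) of 0.43, against −0.01 over all genes tested. This was not particular to the marginal zone list. The receptor signalling list was also at 0.43 and the toll-like receptor list at 0.44. The follicular list was at 0.13, the activation list at 0.12 and the immunoglobulin constant list at −0.26. Thinning each barcode to 1500 UMIs and calling cells by marker UMIs in place of clusters gave p = 0.524 by the same exact permutation test, with a pooled share of 23.8% and a difference (WT minus Lat-KO) of −2.44 percentage points, against −6.98 by clusters. At resolution 0.5 the pooled share was 9.94% and the difference −8.87. At up to 5 Cd3 UMIs the difference was −4.83 and p was 0.0952 (exact permutation test).

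The activated-like share lay between 6.52% and 8.33% in the 5 WT libraries and was 7.79% and 7.07% in the Lat-KO ones, within the WT range. The means were 7.22% and 7.43%, a difference (WT minus Lat-KO) of −0.21 percentage points (exact permutation p = 0.762). The direction was reversed at resolution 1.5 (pooled share 3.35%), at up to 5 Cd3 UMIs (3.32%) and without Lat-KO DN3 γδ− (7.12%), and no cluster bore this name at resolution 0.5 or with no gene class left out.

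**Figure D4:**
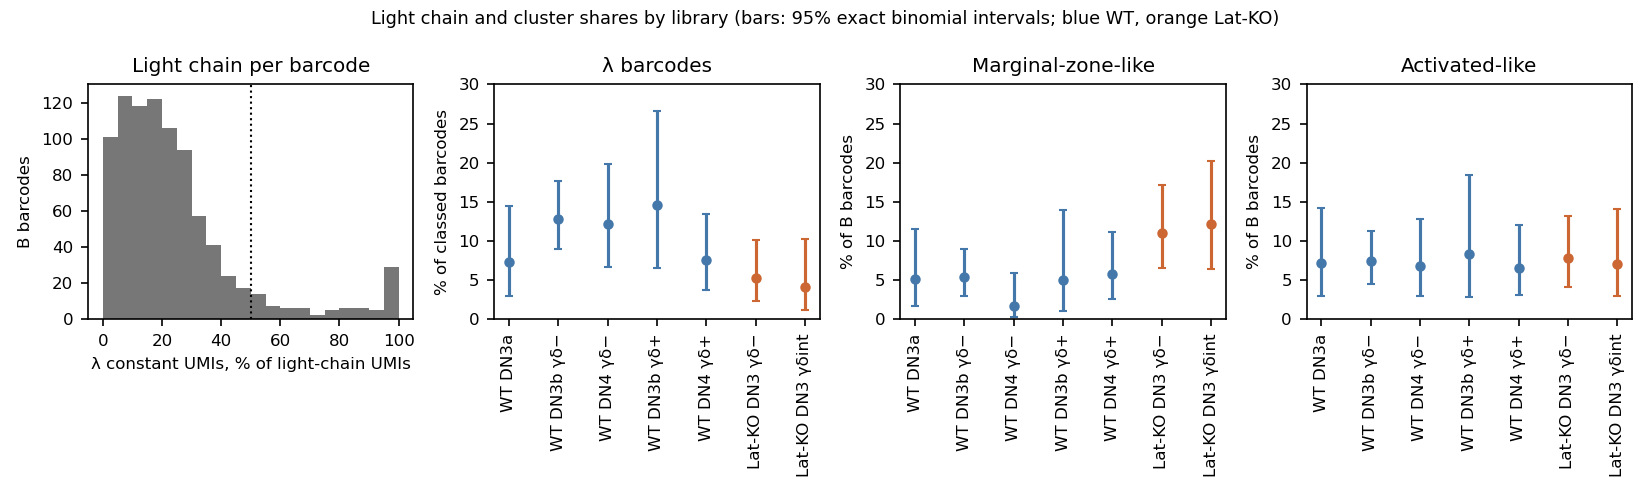
Left, the number of B barcodes by the percent of light-chain UMIs that came from λ constant genes, with the limit of 50% dotted. The other panels give the percent of λ, marginal-zone-like and activated-like barcodes in each library with 95% exact binomial intervals, which cover counting error only (blue WT, orange Lat-KO). The Lat-KO points lie lowest for λ (4.12% and 5.23%), highest for marginal-zone-like (11.04% and 12.1%) and inside the WT range for activated-like.

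Variable segments were too sparsely counted for clones to be followed from these 3′ reads. UMIs of κ variable segments were found in 121 B barcodes (13.1%), of heavy variable segments in 83 (8.96%) and of λ variable segments in 44 (4.75%), and only 13, 9 and 4 barcodes held 2 or more of them.

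Sex-linked genes describe the animals that gave the cells. Xist, transcribed from the inactive X of females, had UMIs in 733 of 926 B barcodes (79.2%), from 61.6% in Lat-KO DN3 γδint to 88.3% in Lat-KO DN3 γδ−. Xist was at 1108 CPM in the pooled B barcodes and 667 CPM in thymocytes. In WT DN3a the values were close, at 1321 and 1295 CPM. The part of thymocyte transcripts in the Xist counts of B barcodes was not tested. The Y-linked Ddx3y, Eif2s3y, Kdm5d and Uty had UMIs in 24 barcodes (2.59%), of which 6 lacked Xist. Their sum was 9.22 CPM in B barcodes and 62.2 CPM in thymocytes, or 14.8% of the thymocyte level (2.39% to 39.3% by library). Whether these UMIs came from male B cells was not tested.

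The B sums of the 5 WT and 2 Lat-KO libraries were compared to ask whether cells added to different thymocytes differed in their counts. The genotype of the thymocytes was checked first. Lat was at 357 to 647 CPM in WT thymocytes and at 4.82 and 0.904 CPM in Lat-KO thymocytes. Of 5332 genes tested in B sums with edgeR's quasi-likelihood test, 1 was higher (0.0188%) and 4 were lower (0.075%) in Lat-KO libraries at an adjusted p of 0.05, and 858 had an unadjusted p under 0.05.

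Lat itself had the largest difference in the B sums, a gene of T cells that belonged to the list of thymocyte transcripts. It was at 46.2, 81.9, 81.6, 61.0 and 26.5 CPM in the WT libraries, and at 1.72 and 0 CPM in the Lat-KO ones (log2 −5.52, SE 0.757, edgeR adjusted p = 0.00298). The call was lost without Lat-KO DN3 γδint (log2 −4.94). In all, 132 Lat UMIs were counted in WT and 1 in Lat-KO B barcodes, a ratio of 51.4 (95% exact interval 9.07 to 2047, counting error only). In the WT libraries Lat in B barcodes was 6.71% to 22.9% of its level in the thymocytes of the same library, and the T cell genes outside Cd3 were 7.70% to 28.7% of theirs, with both lowest in WT DN3a and WT DN4 γδ+ and highest in WT DN4 γδ−.

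Alyref, an mRNA export adaptor, was at 54.3, 65.6, 106, 113 and 47.4 CPM in the WT libraries against 6.90 and 3.69 CPM (log2 −3.78, SE 0.533, edgeR adjusted p = 0.00298). Snhg9, a small nucleolar RNA host gene, was at 24.6 to 66.8 CPM in WT against 0 and 11.1 CPM (log2 −3.88, edgeR adjusted p = 0.0226). Atp5md, a small subunit of the mitochondrial ATP synthase, was at 165 to 374 CPM in WT against 84.5 and 29.5 CPM (log2 −2.18, edgeR adjusted p = 0.0359). None of the 3 is a B cell list gene. The calls of Snhg9 and Atp5md were both lost without WT DN4 γδ− and without WT DN3b γδ+. Without Lat-KO DN3 γδ− the log2 difference of Snhg9 was −2.55, not past the threshold, and that of Atp5md −3.47, while without Lat-KO DN3 γδint they were −7.55 (fitted against a library with no UMI) and −1.61, the latter not past it. Alyref lost its call only without Lat-KO DN3 γδint (−3.42).

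Fosb, an immediate early factor, was the gene that was higher. It was at 57.1, 68.5, 71.7, 46.9 and 66.3 CPM in the WT libraries and at 160 and 229 CPM in the Lat-KO ones (log2 1.34, SE 0.233, edgeR adjusted p = 0.0226), the only one of 15 immediate early genes to pass. Its call was lost without WT DN3b γδ+ (1.31) and without Lat-KO DN3 γδint (1.28). All 5 differences had the same sign in the thymocytes of the same libraries, with log2 differences of 1.63 for Fosb, −1.59 for Atp5md, −2.59 for Alyref, −1.25 for Snhg9 and −7.05 for Lat. The share of all genes tested with the same sign in both classes was not counted. The agreement is therefore not read as particular to these 5.

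No gene of the B identity, transcription factor, receptor signalling, class II, follicular, marginal zone or activation lists passed. The median log2 differences of these lists lay between 0.12 and 0.43, against −0.01 over all genes tested. Only 5 of 5332 genes passed, so that a count of 0 in a list, here and below, is near that share. It does not show that a list was unchanged. The cycling list had a median of −1.96 (0 of 15 passed) and the 88 ribosomal protein genes one of −0.81 (0 passed). The number of genes past the threshold depended on single libraries. It was 1 without Lat-KO DN3 γδint, 269 without Lat-KO DN3 γδ−, 79 without WT DN3a, 40 without WT DN4 γδ+, 17 without WT DN3b γδ− and 2 without WT DN3b γδ+. With DESeq2 it was 146, of which 2 were among the 5.

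**Figure D5:**
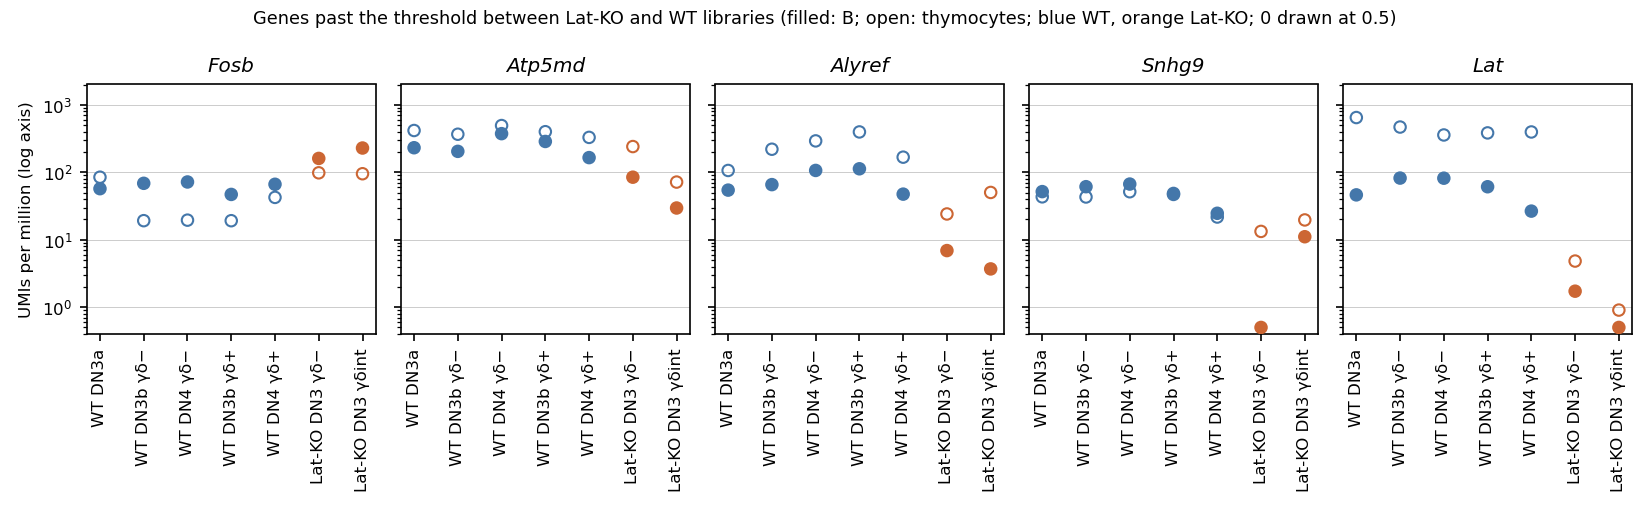
CPM (log axis, 0 drawn at 0.5) of the 5 genes past the threshold between Lat-KO and WT libraries, in the summed B barcodes (filled) and thymocytes (open) of each library, blue for WT and orange for Lat-KO. The 5 genes were picked for the difference between the B points of the 2 groups, so that their separation is not a further result. On average the thymocyte values differ between the 2 groups in the same direction. The share of all genes tested that do so was not counted.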

How the data were processed

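Single-cell RNA libraries of 7 thymocyte sorts, each with spiked splenic B cells, were analysed from the deposited count matrices, which give UMIs for each gene in each barcode. The counts were made by the authors with Cell Ranger (4.0.0 in the file headers, 5.0.1 in the submitters' processing notes, which also name mm10, R 3.6.3 and Seurat 3.1.5), and they were neither scaled nor corrected. Of 32286 features, 32158 had a position in the GENCODE vM21 annotation. Total UMIs per library ran from 49407750 to 375688164.

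The members and gene lists were chosen with earlier results of these data known. UMIs were summed per library over B and over thymocyte barcodes and scaled to CPM. A gene was compared at a mean of 20 CPM in either class, and a count of 0 entered a ratio as 3 counts. No doublet caller was run, and the Cd3 limit served instead. B barcodes were clustered on 2000 variable genes, 20 principal components and 20 neighbours (Leiden, resolution 1; Python 3.11.15, leidenalg 0.10.2), leaving mitochondrial, ribosomal protein, immunoglobulin variable, haemoglobin and sex-linked genes out. B sums of WT and Lat-KO libraries were compared in edgeR 4.0.16 with R 4.3.3 (filterByExpr, TMM, quasi-likelihood, Benjamini-Hochberg), and DESeq2 1.42.0 served as an alternative. Shares were compared by exact permutation over libraries in Python, and scipy 1.17.1 gave their intervals. The edgeR comparison and the 4-fold call were tested on simulated data, whereas the clusters and the permutation test were not. Intervals are exact and cover counting error only.

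Genes named are list genes at 20 CPM or more and others the text turns on, the 15 highest by log2 ratio among genes at 100 CPM or more, all 5 past the threshold between libraries, the 10 leading genes of the named clusters, and the sex-linked genes. The planned naming of leading variable segments was dropped because they were too sparse. Genes below these levels, and the lower genes of a cluster, were named after their values were seen. A few of the genes that this rule names are not reported here. Promoter sequences came from RefSeq (GRCm38.p6), and light-chain sequences from the transcripts and annotation of GENCODE vM21.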

Additional observations from a re-analysis of the deposited data

Results flagged for a closer look

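Of 26 values checked for a library far from the other 4 among the 5 WT libraries, 3 stood out. Chance alone flags about 1 in 20 such groups. The marginal-zone-like share was 1.68% in WT DN4 γδ−, against 5.00% in the nearest library and 5.80% at the other end. It rested on 2 barcodes of 119. T cell genes outside Cd3 summed to 1658 CPM in its B barcodes, above every library but WT DN3b γδ+ (1754 CPM), and the part of that in the share was not tested.

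Cd79a was at 3822 CPM in WT DN3b γδ−, against 2353 CPM in the nearest WT library and 1761 CPM in the lowest. The Lat-KO libraries were at 3801 and 4028 CPM, and Cd79a was used to choose the B barcodes. Igha was at 212 CPM in WT DN3a, against 18.8 CPM in the nearest WT library and 3.79 CPM in the lowest. A single barcode held 72 of the 78 Igha UMIs of that library.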

How the results depend on the processing

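The number of B barcodes was 492 when no Cd3 UMI was allowed, and 799 to 1266 under the other limits on B markers, genes, mitochondrial and Cd3 UMIs. The 4-fold count was 887 with no filter on low values, and 222 to 297 with 1 library left out. The λ share passed the unadjusted threshold at 8.15% with at least 20 light-chain UMIs, 8.91% after thinning to 1500 UMIs and 9.08% at up to 5 Cd3 UMIs (exact permutation p = 0.0476 each). It did not pass with at least 4 times the other chain (8.81%, exact permutation p = 0.0952) or where Iglc1 alone had to exceed Igkc, an alternative chosen after seeing the data (5.84%, difference of 3.37 against 6.20 percentage points, p = 0.143). It ranged from 7.80% to 10.0% with 1 library left out. The marginal-zone-like share did not pass at up to 5 Cd3 UMIs, an alternative chosen after seeing the data (10.5%, exact permutation p = 0.0952), or from thinned marker UMIs (23.8%, difference of −2.44 against −6.98 percentage points, p = 0.524). It was 5.70% to 7.31% with 1 library left out, where no arrangement can reach the threshold. The activated-like difference changed sign at resolution 1.5 (3.35%, exact permutation p = 0.429), at up to 5 Cd3 UMIs (3.32%, p = 0.333) and without Lat-KO DN3 γδ− (7.12%), where the percentages are pooled shares. With 1 library left out the pooled share ranged from 7.12% to 7.36% and the difference (WT minus Lat-KO) from −0.58 to 0.15 percentage points. At resolution 0.5, and with no gene class left out of the variable genes, no cluster bore that name or the transitional one, and at resolution 0.5 none bore the interferon one. With no gene class left out, 29 barcodes formed a cluster with 5 B1 markers, but C1qa, C1qb, C1qc and Hmox1, genes of macrophages, were among its leading genes and it is left unnamed. The cause of these changes was not tested.

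Between WT and Lat-KO libraries, the 5 genes became 146 with DESeq2 (which gave 1809 genes an adjusted p), 290 with no filter on low counts, 69 with ribosomal protein genes left out, 21 with total counts, 31 at 10 or more B marker UMIs and 8 at up to 5 Cd3 UMIs. The range was 1 to 269 with 1 library left out, and where a Lat-KO library was left out the other is assumed to vary like the WT ones. Each alternative was followed for each of the 5 named genes, except that DESeq2 gave no adjusted p for Lat, Alyref and Snhg9. In all 62 of these gene values the direction was that reported, and in 10 of them, all with a library left out, the threshold was not passed. No paired analysis was possible because each thymocyte group had 1 library and the shared replicate number marks no pairing. Depth limits the scarce genes: at 3035517 UMIs in all, a gene at 1 CPM has about 3 UMIs.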
